A study of Mus musculus with 6 samples.

Results

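The genes described here are 60 members of the ephrin, semaphorin, netrin and Slit guidance systems, chosen by name: 33 ligands and 27 receptors among the 20018 gene symbols that could be matched to the array. They were measured in endothelial cells sorted by flow cytometry from mouse skin, on 6 one-colour Agilent arrays. Of these, 3 carried wild-type samples and 3 carried samples from APJ knockout mice, which lack the apelin receptor. The strain of both groups is C57Bl/6J, the cells had no treatment after the sort, and the labels name neither the knockout allele nor the markers of the sort. The names of the scanner files carry the stage E14.5, which the labels do not state. Each label numbers a mouse, but the X-inactivation transcript Xist and the Y-linked gene Ddx3y were both well above background on 6 of 6 arrays, so the number of animals behind a sample is treated as unknown and p-values may reflect technical spread alone.

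Guidance molecules were first known from growing axons, and endothelial cells use the same ligands and receptors to steer sprouts and to keep vessel types apart. Ephrins and Eph receptors signal between touching cells, ephrin-B2 and EphB4 being the classical arterial and venous pair. Class 3 semaphorins are secreted and act through neuropilins with plexins. Slits bind Robo receptors, and netrins bind Dcc, neogenin and the Unc5 family, whose member Unc5b is an endothelial receptor.

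No guidance gene passed the test between genotypes, but Sema3a, Sema3b, Sema3d and Sema3f, the 4 tested class 3 semaphorins among the members, had higher means in the knockout. A class 3 semaphorin outside the 60, Sema3g, did not, with a difference of -0.05. Sema3f, at 1.95 times its wild-type signal, Slit2, Plxna4 and Ephb4 read higher on every knockout array than on any wild-type array. Values are log2 signals minus the 75th percentile of the same array, so 0 is that percentile and a difference of 1 is a doubling. Of the 60 members 52 were tested, having been well above background on every array of at least 1 genotype, and 51 of those were well above background on all 6 arrays. Adjusted over all 24221 genes and unnamed probes tested, limma called 0 of the 52 members at an adjusted p of 0.05, where it called 0.557% of everything tested. At an unadjusted p under 0.05 it had 9 members, or 17.3%, against 8.02% of everything tested. The median difference over members was -0.01 and over everything tested -0.02, with 23 members above 0 and 29 below. The share above 0 was 44.2% of members and 43.9% of everything tested. The features that were called differed by at least 0.61 and only 6 members differed by more than 0.50, 1 of them by more than 1.

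A second description needs no estimate of the spread. In 11 members all knockout arrays lay above all wild-type arrays, and in 3 all lay below. Over everything tested 6.39% lay wholly above and 5.81% wholly below. The 11 were Sema3f, Slit2, Ephb4, Sema3d, Plxna4, Efnb3, Plxna2, Unc5b, Sema3b, Flrt3 and Ephb1, and the 3 were Unc5a, Sema7a and Plxnd1. Without APJ knockout replicate 3 the count wholly below was 11 (14.8% of everything tested), without wild type replicate 1 it was 7 (12.2%), and it was 5 (8.86%) when APJ knockout replicate 1 was left out. Fewer arrays overlap less often by construction. For each of the 14 the exact two-sided permutation p was 0.1, the smallest that 3 arrays against 3 can give.

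**Figure D1:**
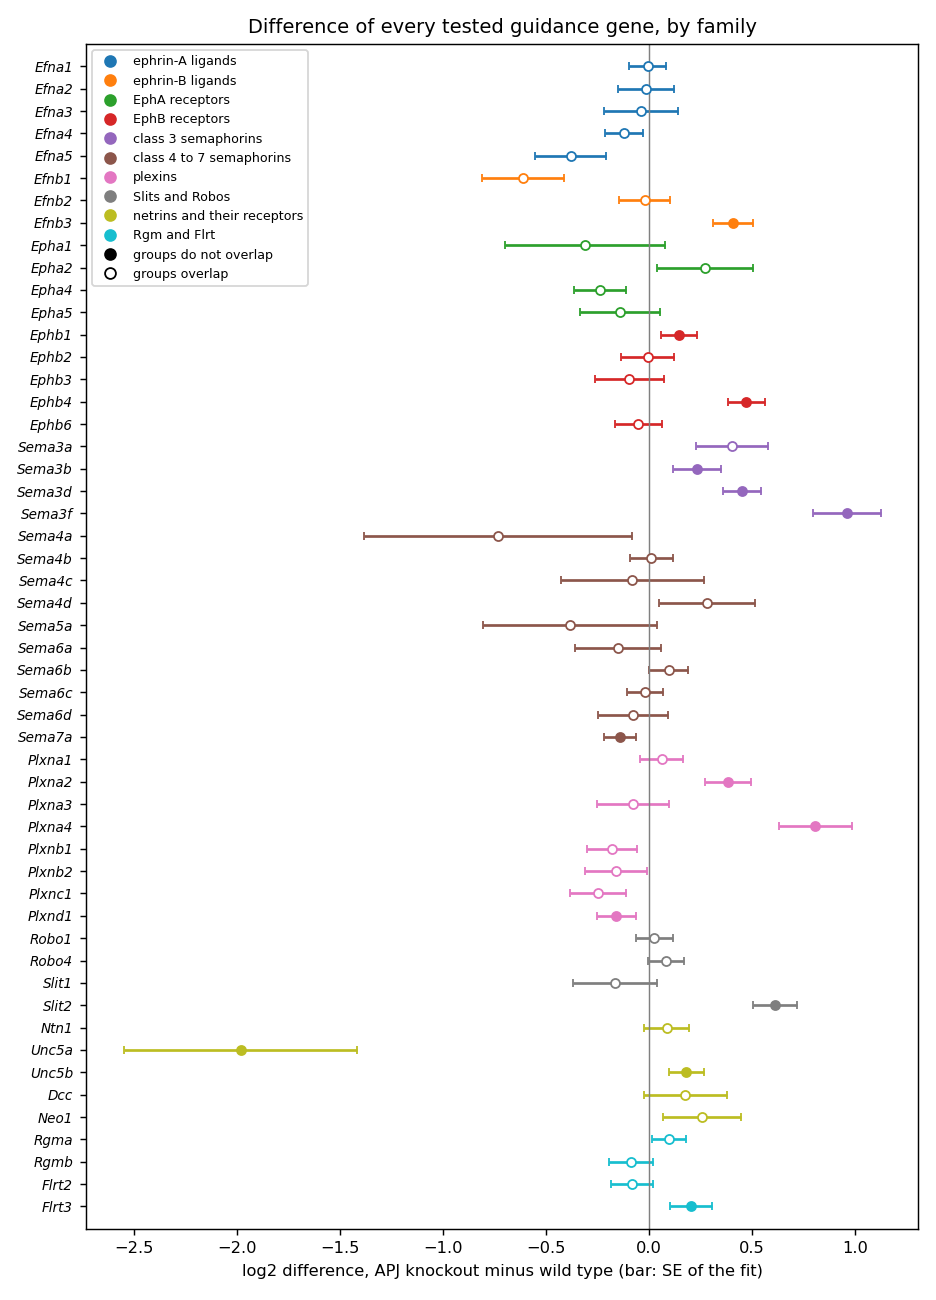
Log2 difference, APJ knockout minus wild type, of each of the 52 tested guidance genes, coloured by family, with the SE of the fit as bars and filled points where the groups do not overlap. Sema3a, Sema3b, Sema3d and Sema3f lie to the right of 0, and Unc5a at -1.98 has the largest difference and one of the widest bars.

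The quality of the arrays and the make-up of the sorts were checked first. The share of probes well above background ran from 50.3% to 58.0% over the arrays, and 0 spots were saturated. Replicates 1 and 2 of both genotypes shared slide 1 and a scan, and replicate 3 of both shared slide 2. Aplnr, which encodes APJ, read 3.35, 3.78 and 3.83 in wild type and 1.90, 1.72 and 2.26 in the knockout, a difference of -1.69 ± 0.19 (SE, 3 arrays a genotype, adjusted p by limma 0.0237). Its 1 probe stayed well above background in the knockout, and where it lies against the deleted part is unknown here. The call was lost when replicate numbers formed a block (adjusted p = 0.0779) and without any 1 array other than APJ knockout replicate 3 (0.051 to 0.145). All 10 endothelial markers listed, among them Pecam1 and Cdh5, were well above background on every array, with a summed linear signal of 824 to 907 in wild type and 838 to 912 in the knockout. Most of that sum was Egfl7, which differed by 0.02.

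To show regulatory sequence, the 250 bases before the RefSeq transcription start are printed for Slit2, Ephb4, Sema3d and Unc5a (GRCm38.p6, plus strand, 5′ to 3′). These had the smallest p among the members whose promoter sequence was at hand, not the largest differences. Capitals mark GGGCGG or its reverse complement CCGCCC, the core bound by Sp and KLF factors, and TATAAA or TTTATA, the TATA box.
Slit2, chr5:47982905-47983154: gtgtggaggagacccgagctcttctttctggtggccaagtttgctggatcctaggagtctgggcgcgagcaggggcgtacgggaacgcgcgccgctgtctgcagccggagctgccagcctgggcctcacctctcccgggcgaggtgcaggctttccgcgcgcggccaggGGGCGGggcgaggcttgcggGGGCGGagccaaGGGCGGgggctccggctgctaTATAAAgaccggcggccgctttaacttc
Ephb4, chr5:137349859-137350108: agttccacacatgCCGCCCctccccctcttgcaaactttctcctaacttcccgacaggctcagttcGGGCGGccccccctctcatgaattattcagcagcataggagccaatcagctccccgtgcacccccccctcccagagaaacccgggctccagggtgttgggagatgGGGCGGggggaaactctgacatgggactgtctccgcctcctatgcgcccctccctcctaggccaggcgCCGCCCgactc
Sema3d, chr5:12382916-12383165: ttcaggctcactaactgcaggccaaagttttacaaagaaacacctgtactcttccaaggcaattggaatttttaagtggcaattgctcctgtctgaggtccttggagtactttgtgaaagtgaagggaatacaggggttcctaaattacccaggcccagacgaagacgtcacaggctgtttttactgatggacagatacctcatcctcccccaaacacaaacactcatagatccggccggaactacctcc
Unc5a, chr13:54949161-54949410: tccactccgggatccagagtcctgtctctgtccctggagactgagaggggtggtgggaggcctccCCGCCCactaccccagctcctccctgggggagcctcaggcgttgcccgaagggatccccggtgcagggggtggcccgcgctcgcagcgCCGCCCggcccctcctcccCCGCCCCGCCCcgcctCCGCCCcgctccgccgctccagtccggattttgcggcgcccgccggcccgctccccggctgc

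The windows differ widely in composition. Unc5a held 5 GC boxes, a pair of them sharing a base, and 25 CpG dinucleotides, Ephb4 held 4 and 12, and Slit2 held 3 and 25 together with 1 TATA box. Sema3d held none of either motif and 4 CpG dinucleotides, at 46.8% G and C against 64.0% to 76.8% in the others. Of the 60 members, 50 had an entry among the promoter windows, with 68 such windows, 69.1% with the GC box and 5.9% with the TATA box. Over all 32851 windows of the same length the shares were 32.7% and 12.4%. A match describes the letters only and says nothing of binding. The members without a window were Dcc, Efnb3, Ntn1, Plxna1, Plxna4, Rgma, Sema3b, Sema3f, Sema6a and Slit1.

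Class 3 semaphorins, the secreted repellents of the family, had the largest median of the families listed. The 4 tested members (Sema3a, Sema3b, Sema3d and Sema3f) were above 0 with a median of 0.43. In 3 of them the genotypes did not overlap, against 12.2% of everything tested. Sema3g, which was not listed as a member but was well above background on all 6 arrays, read -0.51, -0.22 and -0.58 in wild type and -0.57, -0.36 and -0.53 in the knockout. Its groups overlapped, with a difference of -0.05, so the direction was not common to the whole class. The 4 members were also all above 0 in each alternative processing and with any 1 array left out, with medians of 0.22 (normexp background correction) to 0.49. Without a filter on dim probes, which lets in Sema3c and Sema3e, 4 of 6 were above 0. Sema3f, which signals through neuropilin-2, read 2.35, 2.54 and 2.44 in wild type and 3.62, 3.54 and 3.05 in the knockout. Every knockout array was above every wild-type array, and replicate 3, on the other slide, was the lowest of the knockout. The difference was 0.96 ± 0.16 (SE, 3 arrays a genotype), a ratio of 1.95, and missed the threshold (adjusted p by limma 0.0823). It was 1.14 within slide 1 and 0.61 within slide 2. Sema3f passed with the slide as a block (adjusted p = 0.0475), with normexp background correction (0.0362), with a variance trend on intensity (0.0409) and without APJ knockout replicate 3 (0.0357), out of a range of 0.0357 to 0.406 over all alternatives. Those settings called 1.2%, 0.458%, 0.826% and 0.223% of everything tested, in that order, and the replicate number as a block, under which Sema3f had an adjusted p of 0.132 and no member passed, called 0.0206%.

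Sema3d, a secreted guidance cue of vessel patterning, read -1.40, -1.60 and -1.49 in wild type and -1.06, -1.09 and -0.99 in the knockout. The groups were tight and apart, with a difference of 0.45 ± 0.09 (SE, 3 arrays a genotype, adjusted p by limma 0.132) that was 0.42 within slide 1 and 0.51 within slide 2. Sema3a, the repellent of axons that binds neuropilin-1, read -3.54, -3.12 and -3.16 in wild type and -2.67, -2.78 and -3.16 in the knockout. Replicate 3 was the same in both genotypes, so the difference of 0.40 came from slide 1, where it was 0.60, and after normexp correction it was 0.14. Another Sema3a probe, measured on 1 of 3 wild-type arrays and 3 of 3 knockout arrays, differed by 0.37. Sema3b differed by 0.23, but by 0.05 within slide 2, by 0.09 after normexp correction and by 0.13 without wild type replicate 1. Sema3c was at background throughout, and Sema3e, the ligand of plexin-D1, was on 1 of 3 arrays of each genotype, so neither was tested.

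Markers of lymphatic endothelium also had higher means in the knockout. None of that list passed the test, though Pdpn and Stab2 passed with the slide as a block (adjusted p 0.0481 and 0.0475). All 8 (Prox1, Lyve1, Pdpn, Flt4, Mmrn1, Reln, Ccl21a and Stab2) were above 0, with a median difference of 0.54. Of these, 6 had groups that did not overlap, against 12.2% of everything tested. Their summed linear signal was 534 to 624 in wild type and 579 to 650 in the knockout. Most of that sum was Ccl21a, which read 8.95 to 9.19 in wild type and 9.02 to 9.23 in the knockout. It differed by 0.08, and the next brightest marker, Mmrn1, read at most 5.04, so the sum says little of the others. Of macrophage transcripts, 5 were well above background on all arrays, 4 of these above 0, with a median of 0.46. Another 4 (Lyz2, C1qa, C1qc and Adgre1) were tested only because all knockout arrays detected them. The macrophage sums were 12.3 to 19.9 in wild type and 14.1 to 18.2 in the knockout. Csf1r, Fcer1g and Mrc1 made up most of them and differed by -0.23, 0.46 and 0.06. These sums therefore say little of the dimmer macrophage markers. Of the blood cell and platelet list 9 of 9 tested were above 0, where 43.9% of everything tested was. The sums were 192 to 356 in wild type and 215 to 379 in the knockout. They were mostly Hba-a1 and Hbb-y, which differed by 0.004 and 0.20, and say little of the other genes. In both lists 0 genes passed, but C1qa did when replicate numbers formed a block (adjusted p 0.043) and Aif1 with the slide as a block (0.0238). The part of these cell types in the values of the guidance genes was not tested, and in bulk samples fewer cells of a type cannot be told apart from less RNA per cell.

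**Figure D2:**
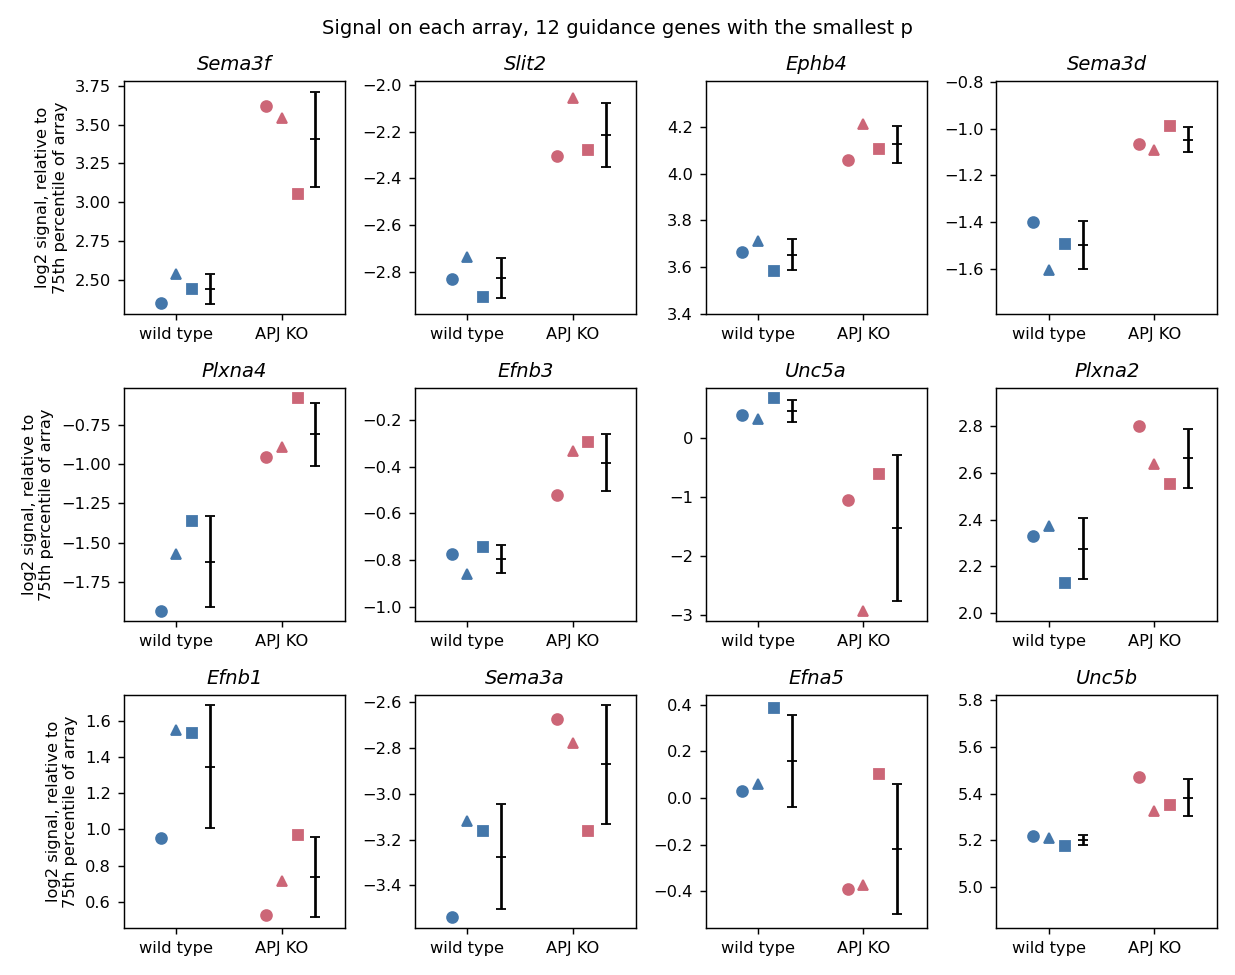
Log2 signal relative to the 75th percentile of the array, on each of 3 wild-type and 3 APJ knockout arrays (circle, triangle and square are replicates 1, 2 and 3), for the 12 guidance genes with the smallest p, with the group mean and SD in black. The groups do not overlap in Sema3f, Slit2, Ephb4, Sema3d, Plxna4, Efnb3, Unc5a, Plxna2 and Unc5b, and they overlap in Efnb1, Sema3a and Efna5.

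The plexins, the transmembrane receptors of semaphorins, lay on both sides of 0. Of 8 tested, 3 were above 0 and 5 below, with a median of -0.12. The 3 were the A-type plexins Plxna1, Plxna2 and Plxna4, while Plxna3, of the same type, was below 0. Outside the 60, the B-type plexin Plxnb3 differed by 1.18, but it was well above background on 1 of 3 wild-type arrays and its difference was -0.04 within slide 2. Plxna4 read -1.93, -1.57 and -1.36 in wild type and -0.96, -0.89 and -0.58 in the knockout. In both genotypes the array on slide 2 was the highest, and the knockout arrays were all above. The difference of 0.81 ± 0.18 (SE, 3 arrays a genotype, adjusted p by limma 0.162) was 0.83 within slide 1 and 0.78 within slide 2 and passed with the slide as a block (adjusted p = 0.0464). It was 0.47 after normexp correction. Another Plxna4 probe was at background throughout.

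Plxna2 read 2.33, 2.37 and 2.13 in wild type and 2.80, 2.64 and 2.55 in the knockout, without overlap and with a difference of 0.39 ± 0.11 (SE, 3 arrays a genotype, adjusted p by limma 0.323). Plxna1 differed by 0.06 with a 95% interval from -0.19 to 0.32, and Plxna3 by -0.08. Plxnd1, the endothelial receptor of Sema3e, read 8.45, 8.58 and 8.44 in wild type and 8.23, 8.43 and 8.35 in the knockout. The knockout arrays were all below, by a small -0.16 (interval -0.39 to 0.07), and another Plxnd1 probe differed by -0.07. Plxnb1, Plxnb2 and Plxnc1, receptors of class 4 and class 7 semaphorins, differed by -0.18, -0.16 and -0.25 with overlapping groups. Plxnb1 was at -0.09 without APJ knockout replicate 3 and -0.11 without wild type replicate 1, and Plxnc1 at -0.16 without APJ knockout replicate 1.

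Membrane-bound semaphorins, classes 4 to 7, showed no common direction. Of 10 tested, 3 were above 0 and 7 below, with a median of -0.08. Leaving out wild type replicate 3 put 6 above 0 with a median of 0.04, and leaving out APJ knockout replicate 2 put 5 above 0. Among the 10 only Sema7a, the GPI-anchored ligand of plexin-C1, had groups apart. Sema7a read 3.44, 3.53 and 3.48 in wild type and 3.33, 3.35 and 3.35 in the knockout, a difference of -0.14 ± 0.08 (SE, 3 arrays a genotype, adjusted p by limma 0.861). Sema4a read 0.97, 0.99 and 1.26 in wild type, and in the knockout 0.94 and 1.36 in replicates 1 and 3 but -1.28 in replicate 2. Its difference of -0.73 ± 0.65 rested on that 1 array and was 0.10 within slide 2. Sema4c, the ligand of plexin-B2, read 5.57, 5.57 and 6.55 in wild type and 5.52, 5.55 and 6.38 in the knockout. Here the slides differed by 0.91 and the genotypes by -0.08. Sema4d, the ligand of plexin-B1, differed by 0.28, with 0.43 within slide 1 and -0.01 within slide 2, and was 0.12 or 0.54 when wild type replicate 2 or wild type replicate 3 was left out. Sema6b, Sema6c and Sema4b differed by 0.10, -0.02 and 0.01, each with a 95% interval inside 0.35 of 0.

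Among Slits and Robos, the ligand Slit2 read higher on every knockout array while the tested Robo genes, Robo1 and Robo4, overlapped between genotypes. Slit2 read -2.83, -2.74 and -2.91 in wild type and -2.31, -2.05 and -2.28 in the knockout, a gap wider than the spread of either group. The difference was 0.61 ± 0.11 (SE, 3 arrays a genotype, adjusted p by limma 0.0848), with 0.60 within slide 1 and 0.63 within slide 2. It missed the threshold in every alternative (adjusted p from 0.0526 with the slide as a block to 0.793 after normexp correction, where the difference was 0.33). Slit1 differed by -0.16 with overlapping groups, and Slit3 was at background throughout. Robo4, the Robo of endothelium, read 7.60, 7.71 and 7.57 in wild type and 7.65, 7.79 and 7.68 in the knockout, a difference of 0.08 with a 95% interval from -0.13 to 0.30. Robo1 differed by 0.03 (interval -0.19 to 0.24). Robo2 was well above background on 2 of 3 wild-type arrays and 1 of 3 knockout arrays and was not tested.

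The tested Unc5 receptors lay on opposite sides of 0. Unc5a, a netrin receptor best known from neurons, had the largest difference of all tested members. It read 0.39, 0.31 and 0.67 in wild type and -1.05, -2.92 and -0.61 in the knockout. Each knockout array was below each wild-type array, but the knockout arrays differed among themselves by more than the gap between the groups. The difference was -1.98 ± 0.57 (SE, 3 arrays a genotype, adjusted p by limma 0.319), leaving 25.3% of the wild-type signal, and it was -2.34 within slide 1 and -1.27 within slide 2. Without APJ knockout replicate 2 it was -1.28 (adjusted p = 0.132), and after normexp correction -1.37. Unc5b, the endothelial Unc5 receptor, read 5.22, 5.21 and 5.18 in wild type and 5.47, 5.33 and 5.35 in the knockout. The groups did not overlap, with a difference of 0.18 ± 0.08 (SE, 3 arrays a genotype, adjusted p by limma 0.713) that was nearly equal on the slides, 0.19 and 0.18.

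The other netrin genes overlapped between genotypes. Ntn1, which encodes netrin-1, differed by 0.09 on the probe used and by -0.16 on another, the only one of 10 members with several measured probes whose probes lay on both sides of 0. Dcc, the attractive netrin receptor, differed by 0.18, and in both genotypes its array on slide 2 was the highest. The other 2 Dcc probes were well above background on 0 of 6 arrays. Neo1, which encodes neogenin, differed by 0.26, with 0.34 within slide 1 and 0.09 within slide 2, and by 0.13 without APJ knockout replicate 2, by 0.45 without APJ knockout replicate 3 and by 0.15 when wild type replicate 3 was left out. Ntn4 and Unc5c were at background throughout, that is, well above it on 0 of 6 arrays. Transcripts of Schwann cells and nerve, the tissue in which Unc5a and Dcc are best known, had summed signals of 29.0 to 29.7 in wild type and 31.2 to 32.5 in the knockout, and 2 of the 5 well above background on all arrays were above 0. Nearly all of that sum was Gap43, which differed by 0.12. The part of these cells in the values of the netrin genes was not tested.

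Of the Eph receptors, Ephb4, the venous receptor of ephrin-B2, stood apart most clearly. It read 3.67, 3.71 and 3.58 in wild type and 4.06, 4.21 and 4.11 in the knockout, tight groups with a gap between them. The difference was 0.47 ± 0.09 (SE, 3 arrays a genotype, adjusted p by limma 0.11), with 0.45 within slide 1 and 0.53 within slide 2. Another Ephb4 probe read 1.67, 1.65 and 1.52 in wild type and 1.99, 1.96 and 1.84 in the knockout and differed by 0.32, again without overlap. Ephb4 passed with a variance trend on intensity (adjusted p = 0.0458) and had adjusted p up to 0.63 in the other alternatives. Its arterial ligand Efnb2 read 3.38, 3.08 and 3.04 in wild type and 3.18, 3.23 and 3.02 in the knockout. That difference was -0.02 with a 95% interval from -0.32 to 0.28, and another Efnb2 probe differed by -0.01.

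The other EphB receptors had differences under 0.20 in size. Ephb1 was higher on every knockout array by 0.15 (interval -0.06 to 0.36), and Ephb2, Ephb3 and Ephb6 differed by -0.01, -0.09 and -0.05. Efnb1 and Efnb3, the other ephrin-B ligands, lay on opposite sides of 0. Efnb3 read -0.78, -0.86 and -0.75 in wild type and -0.52, -0.33 and -0.29 in the knockout, without overlap, and differed by 0.41 ± 0.10 (SE, 3 arrays a genotype, adjusted p by limma 0.203). Efnb1 read 0.95, 1.55 and 1.54 in wild type and 0.52, 0.72 and 0.97 in the knockout. Knockout replicate 3 was above wild type replicate 1, and the difference of -0.61 ± 0.20 had a limma adjusted p of 0.423.

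The ephrin-A system, whose ligands are anchored to the membrane by lipid, had small differences. Of the 5 ephrin-A ligands, 5 were below 0 in the values used, but 2 were above 0 under array median scaling and in the authors' value table, 1 under quantile normalisation and up to 3 with an array left out. Their median was -0.04. Efna1, an ephrin induced in endothelium by inflammatory signals, differed by -0.01 (95% interval -0.22 to 0.21). Efna4 differed by -0.12 with overlapping groups. Efna5 read 0.03, 0.06 and 0.39 in wild type and -0.39, -0.37 and 0.10 in the knockout, with a slide 2 array highest in both genotypes and a difference of -0.38 ± 0.17 (SE, 3 arrays a genotype, adjusted p by limma 0.695). Among EphA receptors Epha2, an endothelial receptor of ephrin-A1, differed by 0.27, by 0.08 without APJ knockout replicate 2, by 0.48 without APJ knockout replicate 3 and by 0.12 when wild type replicate 3 was left out. Epha4 differed by -0.23, but by -0.10 within slide 1, -0.50 within slide 2, -0.10 after normexp correction and -0.15 without wild type replicate 3. Epha5 differed by -0.14, and another Epha5 probe was well above background on 0 of 6 arrays. Epha3 was at background throughout, and Epha7 was on 2 of 3 arrays of each genotype.

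Epha1, a receptor of epithelia, read -2.79, -2.35 and -1.19 in wild type and -2.30, -2.37 and -2.59 in the knockout, so that wild type replicate 3 stood above the rest. Keratinocyte markers were uneven in the same samples. The summed signal of the 10 listed was 10.3, 16.9 and 36.0 in wild type replicates 1 to 3 and 10.48 to 11.5 in the knockout. Trp63, which differed by -0.10, made up most of the sum in the knockout and in wild type replicate 1. The 6 well above background on all arrays were below 0, with a median difference of -0.24 within slide 1 and -2.67 within slide 2, and each of the 10 was well above background on at least 1 array. Their part in the values of Epha1 and Efnb1 was not tested.

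Rgm and Flrt proteins, the repulsive guidance molecules that bind neogenin and the ligands of Unc5 receptors, had a median of 0.01 over 4 tested members, and of -0.03 to 0.06 with an array left out. Flrt3 was higher on every knockout array, reading 1.23, 1.06 and 1.25 in wild type and 1.27, 1.51 and 1.37 in the knockout. Its difference was 0.21 ± 0.10 (SE, 3 arrays a genotype, adjusted p by limma 0.784), and its other probes differed by 0.11 and 0.20. Rgma, Rgmb and Flrt2 differed by 0.10, -0.09 and -0.08 with overlapping groups. Flrt1, outside the 60, read -2.70, -2.47 and -2.56 in wild type and -2.98, -3.17 and -2.73 in the knockout. All its knockout arrays were below, by -0.38 (adjusted p by limma 0.491).

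**Figure D3:**
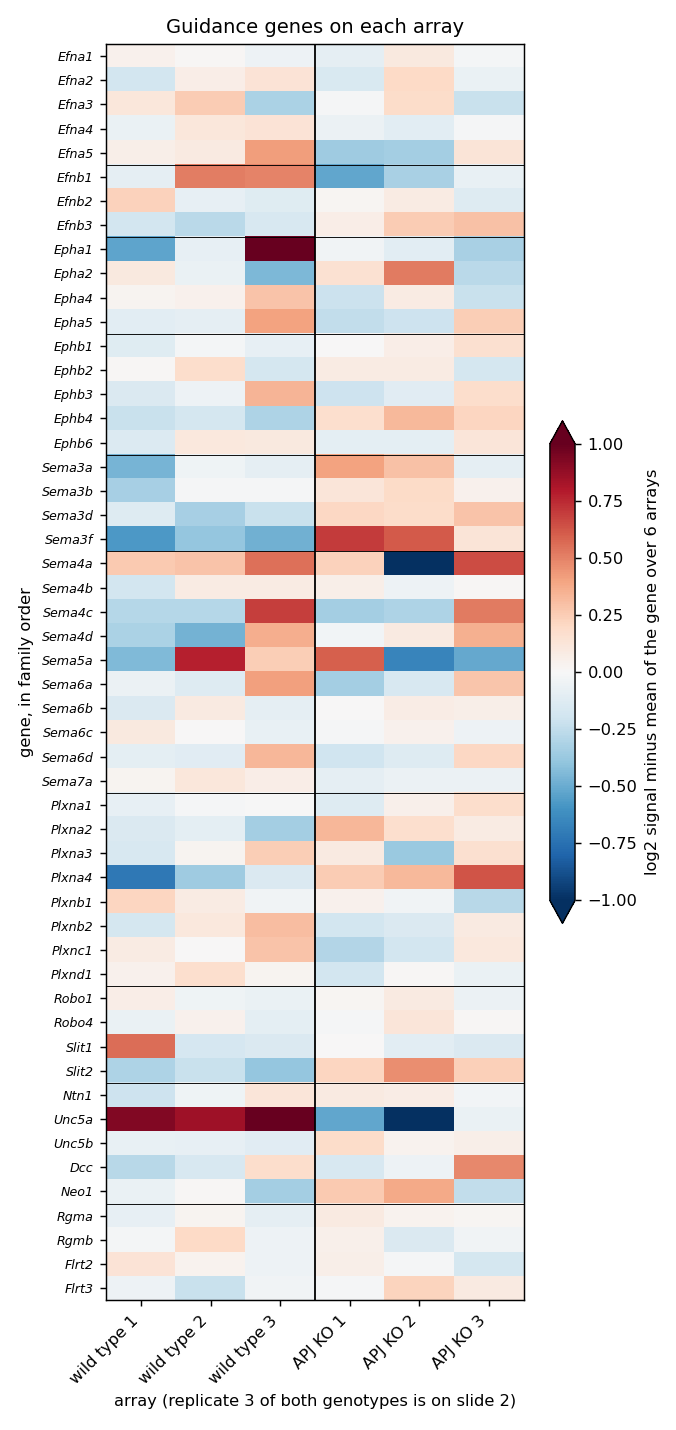
Log2 signal of the 52 tested guidance genes on each array, minus the mean of the gene over the 6 arrays, with families separated by lines and colours capped at 1 in either direction. Unc5a and Sema4a are lowest on APJ knockout replicate 2, and genes such as Sema4c and Epha5 are highest on replicate 3 of both genotypes.

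The slides differed more than the genotypes in many members. In 28 of the 52 members the difference between slide 2 and slide 1, averaged over genotypes, exceeded the difference between genotypes. The same share was not computed over everything tested, so the count is not read as a trait of these members. Within slides, 39 of the 52 (75%, against 62.5% of everything tested) differed in the same direction on both, including, as they must, the 14 whose groups did not overlap. With the slide as a block, Sema3f and Plxna4 passed, 2 members in all, where 1.2% of everything tested was called.

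**Figure D4:**
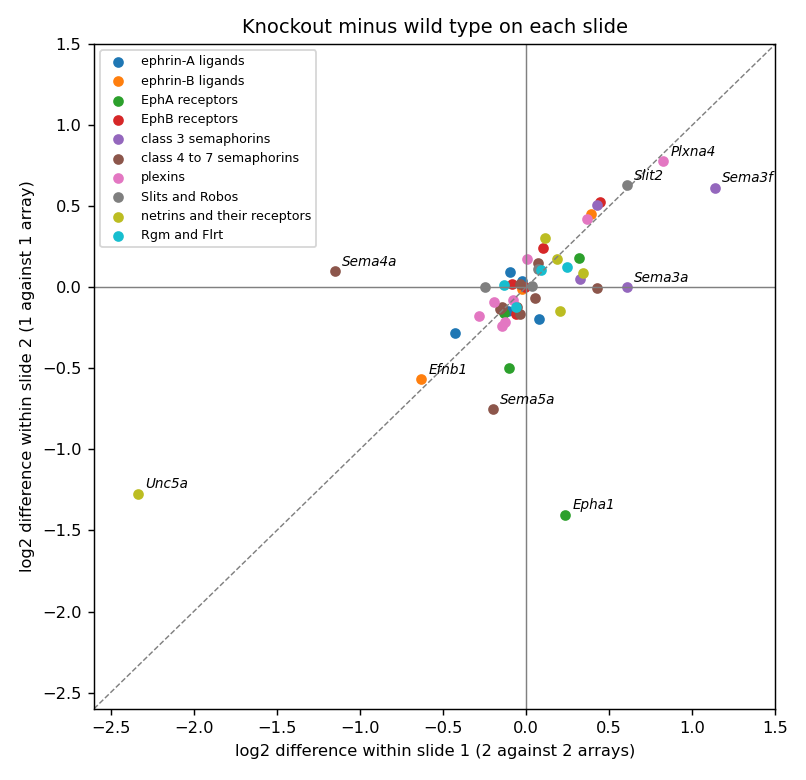
Log2 difference, APJ knockout minus wild type, within slide 1 (mean of 2 arrays against 2) and within slide 2 (1 array against 1) for each of the 52 guidance genes, with the dashed line marking equal values. Slit2 and Plxna4 lie near that line, Sema3f, Sema3a and Unc5a are farther from 0 on slide 1, and Sema4a and Epha1 lie on opposite sides of 0 on the slides.

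Other guidance genes and the proteins that carry their signals were read from lists of 20 and 60 further genes. Of 8 tested guidance genes outside the 60, none passed, and of the 7 well above background on all arrays 4 were above 0. The remaining one was Plxnb3. Of 57 tested co-receptors and effectors none passed either, and 35 were above 0 with a median of 0.04. Of everything tested 43.9% was above 0. At an unadjusted p under 0.05 limma had 3 of the 8, Plxnb3 among them, and 5 of the 57, against 8.02% of everything tested. The co-receptor Nrp2 of Sema3f differed by 0.15, all knockout arrays being above, and Nrp1, the co-receptor of Sema3a, by -0.12.

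The smallest p-values among these genes belonged to a pair that read lower in the knockout. Dpysl3, a cytosolic mediator of the collapse that semaphorins induce, read 5.32, 5.55 and 5.51 in wild type and 4.68, 4.82 and 4.79 in the knockout. The groups did not overlap, and the difference of -0.70 ± 0.10 (SE, 3 arrays a genotype) missed the threshold (adjusted p by limma 0.052). Plxdc2, a transmembrane protein with a plexin-like domain, read 1.20, 1.44 and 1.44 in wild type and 0.77, 0.68 and 0.58 in the knockout, a difference of -0.68 ± 0.11 (adjusted p by limma 0.0643). Mical2, a redox enzyme that disassembles actin downstream of plexins, differed by 0.60, and the unconventional myosin Myo10 by -0.32. Sema5b differed by 0.70 and Gpc1, a heparan sulphate proteoglycan that binds Slits, by 0.66. In all 4 the groups did not overlap, with limma adjusted p of 0.224 to 0.475. Groups did not overlap in 14% of the 57 co-receptors and effectors and in 37.5% of the 8 other guidance genes. Over everything tested the share was 12.2%. Dpysl3 and Gpc1 passed with the slide as a block (adjusted p 0.0427 and 0.0251).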

How the data were processed

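The deposited scanner files hold spot intensities on a linear scale, which Agilent Feature Extraction (version 10.7.3.1) background-subtracted and detrended, per the file headers, with no scaling between arrays. In the value table that the authors deposited, each array's intensity is multiplied by a constant, between 2.29 and 3.69, of unstated origin. Of 59305 non-control spots on 55681 probes, 126 to 179 per array marked as outliers were left out. From these, log2 intensity minus the array's 75th percentile was computed, spots of a probe were averaged, and probes well above background (in at least 50% of their spots, by the software's flag) on every array of 1 genotype were tested. A gene was represented by its tested probe with the highest mean signal. Symbols came from RefSeq accessions (GRCm38.p6 table), while the array was designed on mm9.

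Genotypes were compared with limma 3.58.1 in R 4.3.3 (lmFit, eBayes, two-sided, Benjamini-Hochberg over all 24221 features, no block), tested on simulated data. Intervals are 95% intervals of that fit. The number of arrays limits precision. Named members were, by rule, the 24 with the smallest p and the first of each family. Any other member given with values was chosen after its values were seen. The members and lists were chosen with earlier results of these data known. Deviations of same-numbered wild-type and knockout arrays correlated at 0.23, 0.15 and 0.65. On the same slide, wild type 1 with knockout 2 (0.36) and wild type 2 with knockout 1 (0.28) exceeded the first and second. The labels do not say that the numbers pair the samples, so the main fit used no block. Blocking on the replicate number was an alternative. The normexp alternative used the median spot signal in place of the planned mean signal, with an offset of 50.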

Additional observations from a re-analysis of the deposited data

How the results depend on the processing

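With the replicate number as a block, 0 guidance genes rose and 0 fell, and over all features 4 rose and 1 fell, against 90 and 45 without it; Aplnr kept its difference of -1.69 but not its call (adjusted p = 0.0779). In that fit 14 members had an unadjusted p under 0.05, as did 14% of all features. Blocking on the slide, 2 members rose, and over all features 190 rose and 101 fell. A variance trend called 2 members, Ephb4 and Sema3f, while 131 features rose and 69 fell. Normexp correction called 1 member, Sema3f, and put 5 members wholly below wild type against 3 (4.18% of all features). Without a filter on dim probes 3 features rose, 0 fell, and Aplnr (-1.69) was not called (adjusted p = 0.188); 9 members and 4.39% of features had an unadjusted p under 0.05. With 1 array left out, 11 to 46 features rose and 1 to 26 fell, 0 to 1 members rose, 3 to 11 lay wholly below wild type, and the Aplnr difference ran from -1.84 to -1.57. The median over members stayed between -0.02 and 0.05 in all of these. Array median scaling put 8 members wholly above and 4 below (6.39% and 4.53% of all features). None of the 24 members with the smallest p changed direction in any of these, though Sema4d was -0.01 within slide 2. After normexp correction the differences of Slit2, Plxna4, Sema3a and Sema3b were 0.33, 0.47, 0.14 and 0.09, against 0.61, 0.81, 0.40 and 0.23. Signal near background left 8 members untested. The causes were not tested.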
